A study of Mus musculus with 4 samples.

Results

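The respiratory chain was followed here gene by gene, divided by complex and by the genome that encodes each subunit, in RNA of mouse astrocytes. Its members were the protein-coding genes whose names begin with Nduf followed by a, b, c, s or v, with Uqcr, with Atp5, with Cox4 to Cox8 followed by a, b or c, or with mt-Nd, mt-Co, mt-Atp or mt-Cytb, together with Sdha, Sdhb, Sdhc and Sdhd. This rule found 99 of 23475 listed genes, 88 of them nuclear and 11 mitochondrial. The rule used names and biotype alone, but it was chosen with earlier results of these data known. Complex I had 38 nuclear and 6 mitochondrial members, complex II 4 nuclear members, complex III 8 and 1, complex IV 13 and 3, and complex V 17 and 1. The other 8 were the Ndufaf genes, which encode assembly factors of complex I and share the letters of the rule. Cox6a2, Cox8b, Cox8c, mt-Atp8 and mt-Nd3 have names of the same form and were not analysed here.

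The study compared astrocytes isolated at postnatal day 5 from the cerebral cortex of PD1cKO-Cx3 mice, labelled KO, with those of PD1fl/fl mice, labelled WT, with 2 RNA sequencing libraries in each group. PD-1, encoded by Pdcd1, is an inhibitory receptor best known from T cells. The fl/fl animals carry the floxed allele without deletion, the KO animals a conditional deletion, and the sources used here do not spell out which cells the Cx3 of that name refers to. They do not say either whether the libraries of a group came from separate animals, so the p-values measure the spread between libraries only.

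The libraries held 14224519 to 16961160 listed counts. Pdcd1 had 0 and 20 counts in the libraries labelled KO 1 and KO 2, against 0 and 0 in those labelled WT, so its level did not check the labels. The library labelled KO 2 stood apart in the sex-linked genes: Xist had 6778 and 0 counts in the libraries labelled KO 1 and KO 2, against 6732 and 8564 in those labelled WT, and Ddx3y 0 and 2472 counts against 0 and 0. Markers of mature astrocytes were present in every library and summed to 6720.2 to 7502 CPM (counts scaled to a common library size and composition) in the libraries labelled KO, against 6882 to 7500 CPM in those labelled WT. All 18 listed markers of microglia and macrophages had a log2 fold change above 0, none was at 0 in a library, and they summed to 4404 to 5411 CPM in the libraries labelled KO, against 1007 to 1429 CPM in those labelled WT. All 12 endothelial markers were likewise above 0, at 479 to 894 CPM summed in the libraries labelled KO, against 211 to 371 CPM in those labelled WT. Neuronal markers summed to 2461 to 2567 CPM in the libraries labelled KO, against 2766 to 3145 CPM in those labelled WT, with 8 of 12 below 0. Those of mature oligodendrocytes summed to 699 to 877 CPM in the libraries labelled KO, against 381 to 572 CPM in those labelled WT, with 6 of 7 above 0 and Mobp at 0 in KO 2, WT 1 and WT 2. Those of oligodendrocyte precursors summed to 2438 to 2447 CPM in the libraries labelled KO, against 1822 to 2322 CPM in those labelled WT, with 6 of 6 above 0. Blood cell markers summed to 76.0 to 96.6 CPM in the libraries labelled KO, against 26.6 to 27.8 CPM in those labelled WT, with all 4 tested above 0 and Hbb-bt at 0 in WT 2. The part of these other cells in any result below was not tested. In bulk RNA, fewer cells of a type and less RNA per cell cannot be told apart.

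The chain passes electrons from NADH through complex I, or from succinate through complex II, to coenzyme Q, then through complex III and cytochrome c to complex IV, which reduces oxygen. Complexes I, III and IV pump protons, and complex V, the ATP synthase, uses their return to make ATP. The mitochondrial chromosome encodes a few core subunits of every complex but II. Those genes are transcribed inside the organelle as long precursors that are then cut, while all other subunits are transcribed in the nucleus and imported as proteins. Astrocytes are known for strong glycolysis, and they also hold an active respiratory chain.

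Several members have near-identical copies elsewhere in the genome, so their counts depend on where shared reads were placed. A copy was counted as near-identical when it matched at least 50% of a member's transcript at 95% identity or more, in GENCODE M21 transcripts of GRCm38. The sequences of mt-Co2, which encodes a core subunit of complex IV, are shown because they show which reads such a count can separate. The gene lies at 7013 to 7696 on the mitochondrial chromosome. Its copy Gm28661 on chromosome 1, at 24614885 to 24615565 on the minus strand, was identical over all 681 aligned bases, and its copy Gm13341 on chromosome 2 was 95.9% identical over 684 aligned bases. Bases 4 to 93 of each transcript are given 5′ to 3′, with capitals marking bases that differ from mt-Co2.
mt-Co2: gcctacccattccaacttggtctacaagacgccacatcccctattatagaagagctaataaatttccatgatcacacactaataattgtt
Gm28661: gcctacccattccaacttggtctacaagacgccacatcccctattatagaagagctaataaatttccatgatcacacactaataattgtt
Gm13341: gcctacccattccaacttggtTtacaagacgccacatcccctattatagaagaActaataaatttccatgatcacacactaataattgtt
A read from this window has the same letters in mt-Co2 and Gm28661. The same stretch of chromosome 1 holds copies of mt-Atp6, mt-Co3, mt-Nd4l and part of mt-Nd4 (Gm10925, Gm28437, Gm10222 and Gm28439), each at 100% identity.

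The levels of the mitochondrial members differed widely. Per kilobase of exon, mt-Co2, mt-Co3, mt-Atp6 and mt-Nd4l, which are shared at 100% identity over nearly their whole length, had mean levels over the 4 libraries of 0.325 to 36.4 CPM per kb. The other 7 had 104.9 to 3551 CPM per kb, led by mt-Co1 at 3551, mt-Cytb at 3242 and mt-Nd1 at 2596 CPM per kb. mt-Co1 also has a full-length copy, Gm13340, at 97.6% identity. By the definition above, mt-Nd4 and mt-Nd5 have near-identical copies too. Gm28439 matches 63.6% of mt-Nd4 at 100% identity, and Gm4076 matches 52.3% of mt-Nd5 at 95.2% identity. mt-Nd5 had 179 CPM per kb. Having a near-identical copy therefore did not by itself mark the low genes, and whether shared reads set these levels was not tested. The sources used here do not say how reads with several placements were counted, and the values of the 4 shared genes are therefore uncertain. Among nuclear subunits, 12 of 80 had such a copy, with a median level of 14.7 CPM per kb, against 14.5 CPM per kb for the other 68. The highest nuclear member was Atp5b, the catalytic beta subunit of complex V, at 429.9 CPM per kb, below mt-Co1, mt-Cytb, mt-Nd1 and mt-Nd4 (522 CPM per kb).

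**Figure D1:**
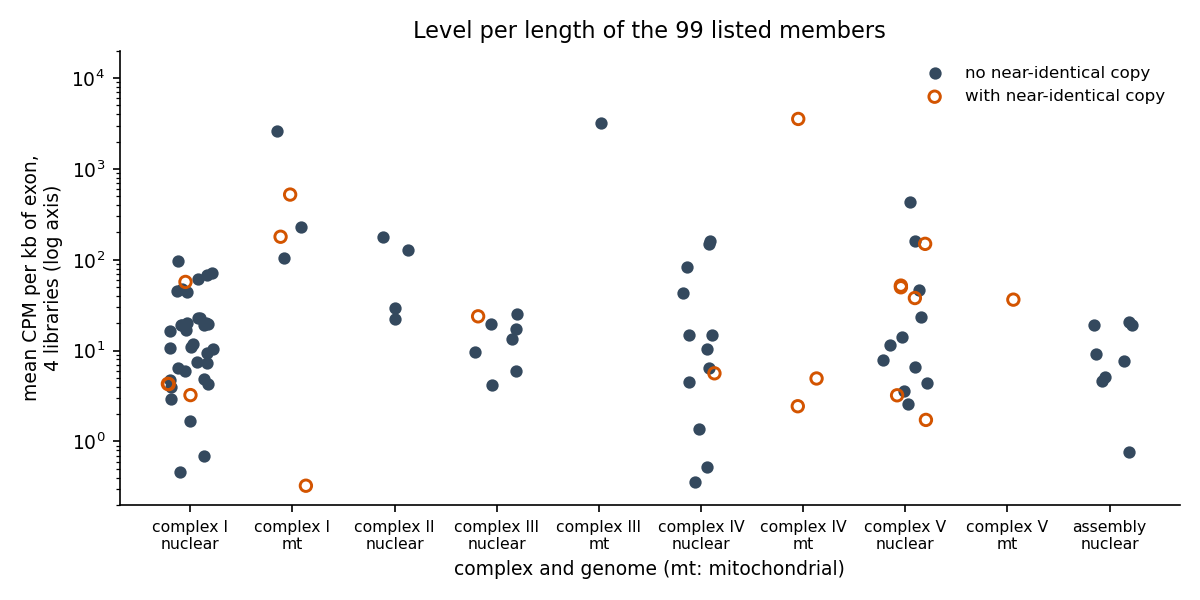
Mean level of each of the 99 members over the 4 libraries in CPM per kilobase of exon (log axis), by complex and genome, each point 1 gene; open orange points have a near-identical copy in the genome. mt-Co1, mt-Cytb and mt-Nd1 lie highest, at 2596 to 3551 CPM per kb, and mt-Co2, mt-Co3, mt-Atp6 and mt-Nd4l at 36.4 CPM per kb or below.

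Mitochondrial transcripts made up a larger part of the libraries labelled KO, and nuclear ones a smaller part. The 11 mitochondrial members held 1.47% and 1.38% of listed counts in the libraries labelled KO, against 1.16% and 1.2% in those labelled WT. The 88 nuclear members held 0.639% and 0.638% in the libraries labelled KO, against 0.669% and 0.679% in those labelled WT. Neither pair of groups overlapped, with ratios of the KO to the WT mean of 1.21 and 0.948. Mitochondrial members thus had 2.29 and 2.16 times the counts of nuclear members in the libraries labelled KO, against 1.73 and 1.77 times in those labelled WT (means 2.23 ± 0.0924 and 1.75 ± 0.0282, SD, n = 2 each). No test was made of these shares. An exact two-sided permutation test of 2 against 2 libraries cannot go below p = 0.33. The 2 mitochondrial rRNA genes, which are no members, stood the other way: they held 0.288% and 0.347% of counts in the libraries labelled KO, against 0.397% and 0.394% in those labelled WT.

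**Figure D2:**
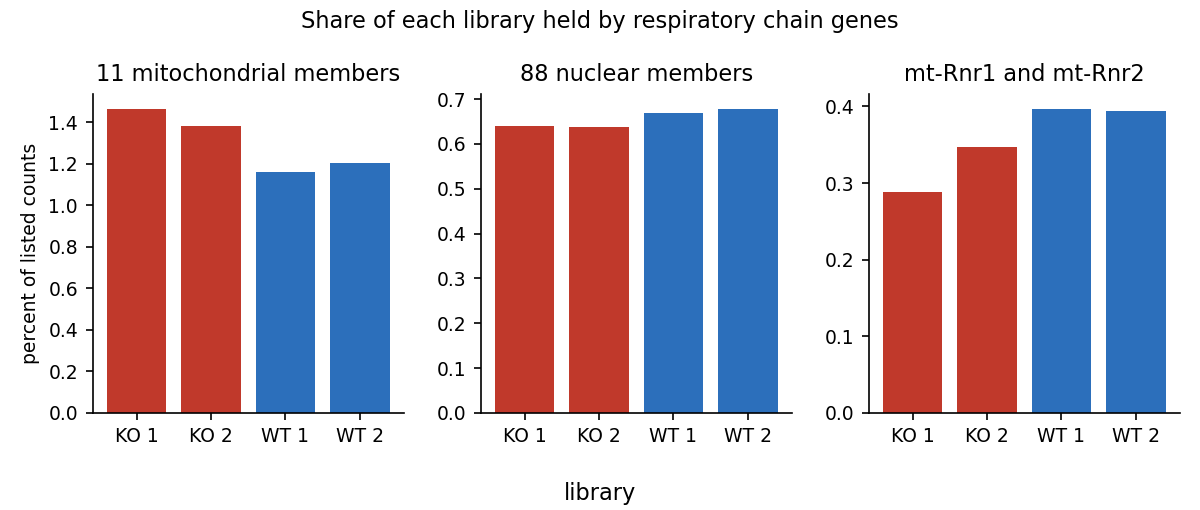
Percent of each library's listed counts (bars start at 0) held by the 11 mitochondrial members, the 88 nuclear members and the mitochondrial rRNA genes mt-Rnr1 and mt-Rnr2, 1 bar per library, libraries labelled KO in red and WT in blue. The mitochondrial members hold 1.38% to 1.47% in the libraries labelled KO, against 1.16% to 1.2% in those labelled WT, while the rRNA genes lie lower in the libraries labelled KO.

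No member passed the test of KO against WT. With edgeR's quasi-likelihood test on 17696 genes and a threshold of 0.05 on the Benjamini-Hochberg adjusted p, 0 of the 94 members tested were called, beside 0.017% of all genes tested (3 genes, all higher, against 0 genes without the library labelled KO 2 and 42 without WT 2). Of the 3 genes called, 1 was among the 18 markers of microglia and macrophages. In edgeR, 17 of those 18 markers were higher at an unadjusted p under 0.05, beside 5.88% of all genes. The smallest adjusted p of a member in edgeR was 0.327, for mt-Cytb. At an unadjusted p under 0.05, 5 members were higher and 3 lower, beside 5.88% of all genes higher and 2.41% lower (8.29% either way). limma-voom called 0 members, beside 0.158% of all genes, and DESeq2 called 1, mt-Cytb, at an adjusted p of 0.0111, beside 2.14% of all genes. On data simulated from these libraries, with the spread that edgeR estimated for each gene, DESeq2 called 51 unchanged genes of 16636 and edgeR called 3. The simulated spread was edgeR's own, so these counts do not compare the tools on equal terms. They are over all genes, and the error of the mt-Cytb call was not tested. Ndufa1, Ndufb6, Cox7a1, Cox7b2 and mt-Nd4l had too few counts to be tested.

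The log2 fold changes of the 10 mitochondrial members tested ran from 0.16 to 0.72, all above 0, beside 50% of all genes. Their median was 0.34, against -0.00027 over all genes. In 9 of the 10, both libraries labelled KO lay above both labelled WT, an arrangement found in 21.2% of all genes tested, and mt-Nd1, mt-Nd4, mt-Cytb and mt-Co1 were the 4 with an unadjusted p under 0.05. Without the library labelled KO 2 the median was 0.42, and without KO 1 it was 0.25. Genes of one strand share precursor transcripts, and some share reads with nuclear copies, so they are not independent.

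Among the complex I subunits, mt-Nd1, a membrane subunit near the coenzyme Q site, had 2660.2 and 2761 CPM in the libraries labelled KO, against 2205 and 2312 CPM in those labelled WT. Both libraries labelled KO were above both labelled WT, by 0.26 ± 0.07 on the log2 scale (± an SE derived from edgeR's test statistic, edgeR adjusted p = 0.389). mt-Nd2, one of the proton-pumping membrane subunits, had 280.0 and 245 CPM in the libraries labelled KO, against 207 and 221 CPM in those labelled WT. mt-Nd4, another pumping subunit, had 791 and 807 CPM in the libraries labelled KO, against 627 and 652 CPM in those labelled WT. Again no library labelled KO fell within the range of those labelled WT, and the log2 fold changes were 0.30 ± 0.13 for mt-Nd2 and 0.32 ± 0.09 for mt-Nd4 (edgeR adjusted p = 0.637 and 0.447). mt-Nd5, which completes the pumping arm, had 388 and 329 CPM in the libraries labelled KO, against 299.6 and 291 CPM in those labelled WT, a log2 fold change of 0.28 ± 0.13 (edgeR adjusted p = 0.659). mt-Nd6 had 69.0 and 54.2 CPM in the libraries labelled KO, against 42.7 and 51.9 CPM in those labelled WT, a log2 fold change of 0.38 ± 0.22 (edgeR adjusted p = 0.752). It is the only protein gene on the light strand of the mitochondrial chromosome, and both libraries labelled KO lay above both labelled WT. mt-Nd4l was counted 2 and 2 times in the libraries labelled KO, against 0 and 2 times in those labelled WT, too few to describe.

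mt-Cytb, the cytochrome b of complex III and its only mitochondrial subunit, had 4732 and 3874 CPM in the libraries labelled KO, against 3047 and 3180.1 CPM in those labelled WT. The libraries labelled KO lay above those labelled WT and apart from each other, with a fold of 1.38 and a log2 fold change of 0.47 ± 0.10 (edgeR adjusted p = 0.327). mt-Co1, the catalytic subunit of complex IV, had 5799 and 5789 CPM in the libraries labelled KO, against 5198 and 5158 CPM in those labelled WT. Its groups were tight and apart, and its log2 fold change of 0.16 ± 0.05 was the smallest of the 10 (edgeR adjusted p = 0.458). mt-Cytb, mt-Nd1 and mt-Co1 together made up 89.4% to 89.7% of the mitochondrial member counts in every library.

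The low, shared genes had wide errors. mt-Atp6, which forms the proton channel of complex V, had 29.1 and 27.4 CPM in the libraries labelled KO, against 21.4 and 21.2 CPM in those labelled WT, a log2 fold change of 0.41 ± 0.24 (edgeR adjusted p = 0.752). With the counts of its copy added the log2 fold change was 0.42. mt-Co2 had 4.56 and 3.0 CPM in the libraries labelled KO, against 3.50 and 2.43 CPM in those labelled WT, and its groups overlapped (log2 fold change 0.35 ± 0.68, edgeR adjusted p = 0.961). Adding the copy Gm28661 brought the log2 fold change of mt-Co2 to 0.10. mt-Co3, a core complex IV subunit, had 2.62 and 2.15 CPM in the libraries labelled KO, against 1.01 and 1.88 CPM in those labelled WT, a log2 fold change of 0.72 ± 0.90 (edgeR adjusted p = 0.925). It rests on 42 and 35 counts in the libraries labelled KO, against 17 and 27 in those labelled WT. Its copy Gm28437 had 14 and 14 counts in the libraries labelled KO, against 14 and 16 in those labelled WT, without that difference. No log2 fold change with this copy added is given here.

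The rRNA genes of the same chromosome did not share the direction. mt-Rnr2, the large ribosomal RNA, had 2827 and 3408 CPM in the libraries labelled KO, against 3902 and 3781 CPM in those labelled WT, a log2 fold change of -0.30 ± 0.10 (edgeR adjusted p = 0.481). mt-Rnr1, the small one, had 73.7 and 80.2 CPM in the libraries labelled KO, against 89.4 and 118 CPM in those labelled WT. In both, the libraries labelled KO lay below those labelled WT.

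**Figure D3:**
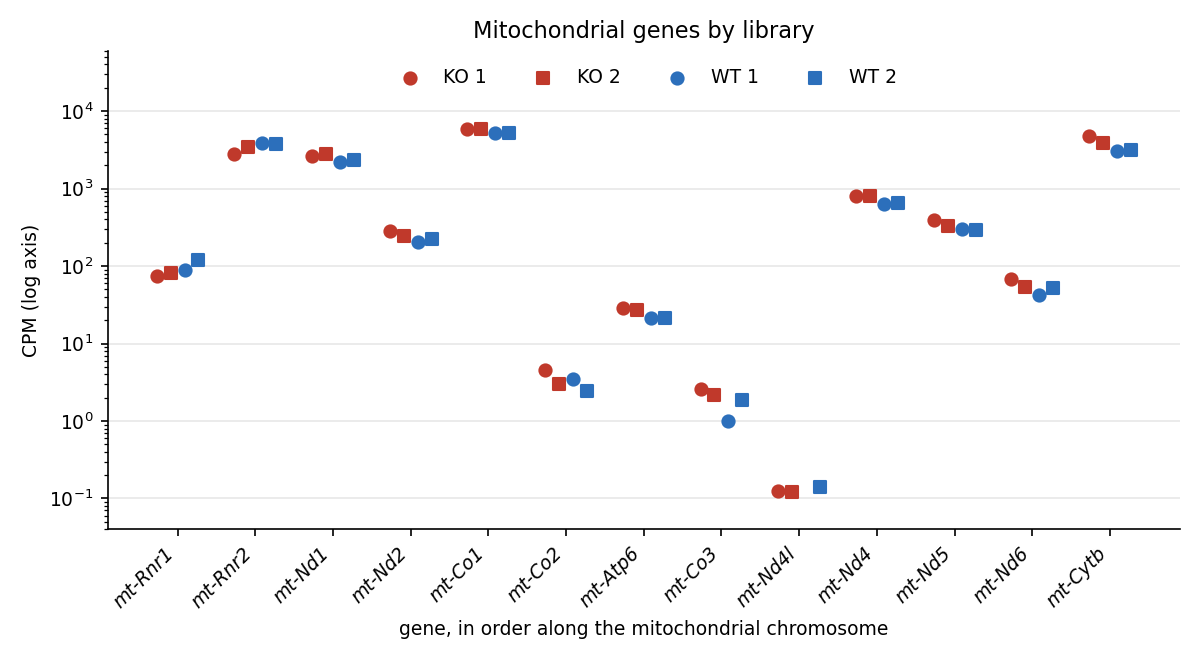
CPM (log axis) of each mitochondrial member and of mt-Rnr1 and mt-Rnr2 in each library, in order along the mitochondrial chromosome, with libraries labelled KO in red and WT in blue, circles for library 1 and squares for library 2 of a group; the WT 1 value of mt-Nd4l is 0 and not drawn. The protein genes lie higher in the libraries labelled KO apart from the overlapping mt-Co2 and the barely counted mt-Nd4l, and mt-Rnr1 and mt-Rnr2 lie lower.

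The nuclear subunits leaned slightly the other way. Of the 76 tested, 50 (65.8%) had a log2 fold change below 0, beside 50% of all genes, and the median was -0.11. Complexes were assigned by name, so the 76 include Ndufa4 and Ndufa4l2 under complex I, Cox7a2l under IV, and Atp5s and Atp5sl under V. In 30 both libraries labelled KO lay below both labelled WT, an arrangement of 18.4% of all genes, and in 9 both lay above. By complex, the median was -0.10 for complex I, 0.01 for complex II, -0.12 for complex III, -0.19 for complex IV and -0.10 for complex V, with 23 of 36, 2 of 4, 5 of 8, 8 of 11 and 12 of 17 below 0. Leaving out 1 library moved some of these medians: complex I lay at -0.18 without KO 1 and at -0.18 without WT 1, but at -0.04 without KO 2, and complex III at -0.26 without KO 1 and -0.01 without KO 2. Over all 76 subunits the median stayed between -0.15 and -0.08 with any 1 library left out. The 8 Ndufaf assembly factors had a median of 0.06, with 6 above 0, and their median changed sign without KO 1 (-0.04), KO 2 (-0.01) or WT 2 (-0.11).

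**Figure D4:**
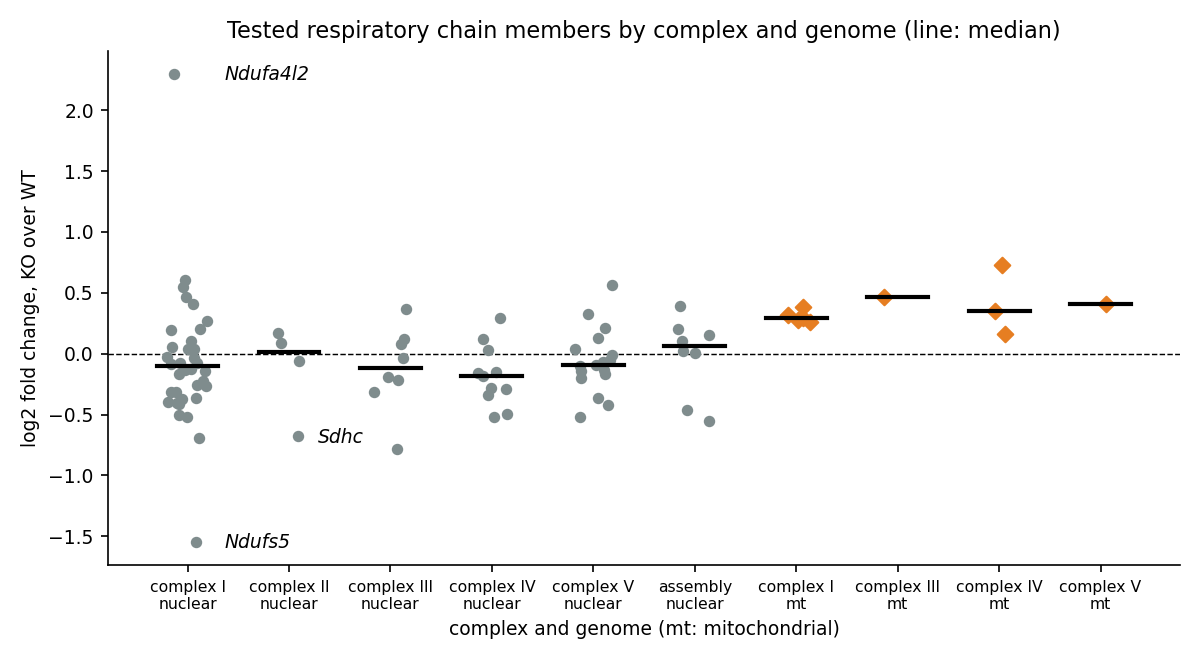
Log2 fold change of KO over WT of each tested member by complex, nuclear genes as grey circles and mitochondrial genes as orange diamonds, with a line at the median of each group and a dashed line at 0. All mitochondrial points lie above 0, and the nuclear medians lie between -0.19 and 0.06. Ndufa4l2 (placed with complex I by name), Ndufs5 and Sdhc lie farthest out in their groups.

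In complex I, Ndufs1 and Ndufa9 were among the most abundant tested nuclear subunits. Ndufs1, an iron-sulfur subunit of the electron input arm, had 173 and 158 CPM in the libraries labelled KO, against 143 and 164 CPM in those labelled WT. Its groups overlapped, with a log2 fold change of 0.11 ± 0.14 (edgeR adjusted p = 0.939). Ndufa9, an accessory subunit of the same arm, had 145 and 145 CPM in the libraries labelled KO, against 163 and 155 CPM in those labelled WT, a log2 fold change of -0.13 ± 0.13 (edgeR adjusted p = 0.896). Of 36 tested nuclear members placed in complex I by name, 6 lay above and 16 below in both libraries labelled KO. Over all genes, 21.2% lay above and 18.4% below. The 6 include Ndufa4l2, a relative of Ndufa4, and the 16 include Ndufa4, now known as a complex IV subunit. Ndufa3, an accessory subunit, was among the 3 highest fold changes of nuclear and mitochondrial members with a mean of at least 1 CPM, with 22.5 and 18.6 CPM in the libraries labelled KO, against 14.4 and 12.6 CPM in those labelled WT (log2 fold change 0.61 ± 0.29, edgeR adjusted p = 0.671).

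The lowest fold change of the chain was that of Ndufs5, an accessory subunit of complex I, at 123712710 to 123718202 on the minus strand of chromosome 4. It had 1.81 and 1.96 CPM in the libraries labelled KO, against 5.33 and 5.70 CPM in those labelled WT, from 29 and 32 counts against 90 and 82. The groups lay far apart, with a log2 fold change of -1.54 ± 0.62 (edgeR adjusted p = 0.591). Its processed copy BC002163, at 42955631 to 42955949 on the plus strand of chromosome 16, was 99.4% identical over 319 aligned bases with 2 mismatches. Both mismatches fall in the window printed next, bases 108 to 197 of the Ndufs5 transcript, inside its coding part, where capitals mark bases that differ from Ndufs5.
Ndufs5: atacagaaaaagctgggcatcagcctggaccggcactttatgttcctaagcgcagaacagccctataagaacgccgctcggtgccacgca
BC002163: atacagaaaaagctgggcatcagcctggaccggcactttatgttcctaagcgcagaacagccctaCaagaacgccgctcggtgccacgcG
The rest of the aligned stretch has the same letters in both genes, and the copy had the same direction with a larger difference. BC002163 had 0.875 and 1.53 CPM in the libraries labelled KO, against 10 and 10.8 CPM in those labelled WT, a log2 fold change of -3.10 ± 0.57 (edgeR adjusted p = 0.235). Summed, the pair had 43 and 57 counts in the libraries labelled KO, against 259 and 237 counts in those labelled WT, with a log2 fold change of -2.36 ± 0.40 (edgeR adjusted p = 0.195). From which of the 2 loci these reads came was not tested.

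Ndufs3, a core subunit of the peripheral arm, was likewise low, with 6.94 and 7.30 CPM in the libraries labelled KO, against 12.2 and 10.8 CPM in those labelled WT (log2 fold change -0.69 ± 0.37, edgeR adjusted p = 0.721). Its copy Gm12251 had 224 and 211 counts in the libraries labelled KO, against 202 and 197 in those labelled WT. The gene itself had 111 and 119 counts against 206 and 155, fewer than the copy in every library but WT 1. With the copy added, the log2 fold change of Ndufs3 was -0.24 ± 0.24. Leaving out all members with a listed near-identical copy moved the median of the nuclear subunits to -0.09.

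Complex II, which also serves in the citric acid cycle, is encoded in the nucleus alone. Sdha, its flavoprotein, had 551 and 542 CPM in the libraries labelled KO, against 512 and 519 CPM in those labelled WT, a small separation of 0.08 ± 0.10 on the log2 scale (edgeR adjusted p = 0.916). Sdhb, the iron-sulfur subunit, had 65.4 and 63.6 CPM in the libraries labelled KO, against 63.8 and 70.4 CPM in those labelled WT, and its groups overlapped (log2 fold change -0.06 ± 0.17, edgeR adjusted p = 0.978). Sdhc and Sdhd together form the membrane anchor, and their values did not go the same way. Sdhc had 55.0 and 55.0 CPM in the libraries labelled KO, against 87.3 and 88.9 CPM in those labelled WT, so that replicates nearly coincided and the groups stood apart. Its log2 fold change was -0.68 ± 0.16, a fold of 0.624, and its edgeR adjusted p of 0.350 was the second smallest of the chain after mt-Cytb. It stayed between -0.69 and -0.67 with any 1 library left out. Sdhd had 212 and 257 CPM in the libraries labelled KO, against 220.0 and 197 CPM in those labelled WT, and its groups overlapped (log2 fold change 0.17 ± 0.15, edgeR adjusted p = 0.869). Sdhc lies at 171127165 to 171150603 on chromosome 1, the chromosome of Pdcd1, which lies 77074611 bases away. It is not the member nearest to Pdcd1. Ndufa10 of complex I, at 92439010 to 92473860 on the same chromosome, lies nearer. Its values were 19.0 and 15.6 CPM in the libraries labelled KO, against 14.9 and 15.4 CPM in those labelled WT. The log2 fold change of Ndufa10 was 0.19 ± 0.29 (edgeR adjusted p = 0.947). Any part of chromosome position in these values was not tested.

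**Figure D5:**
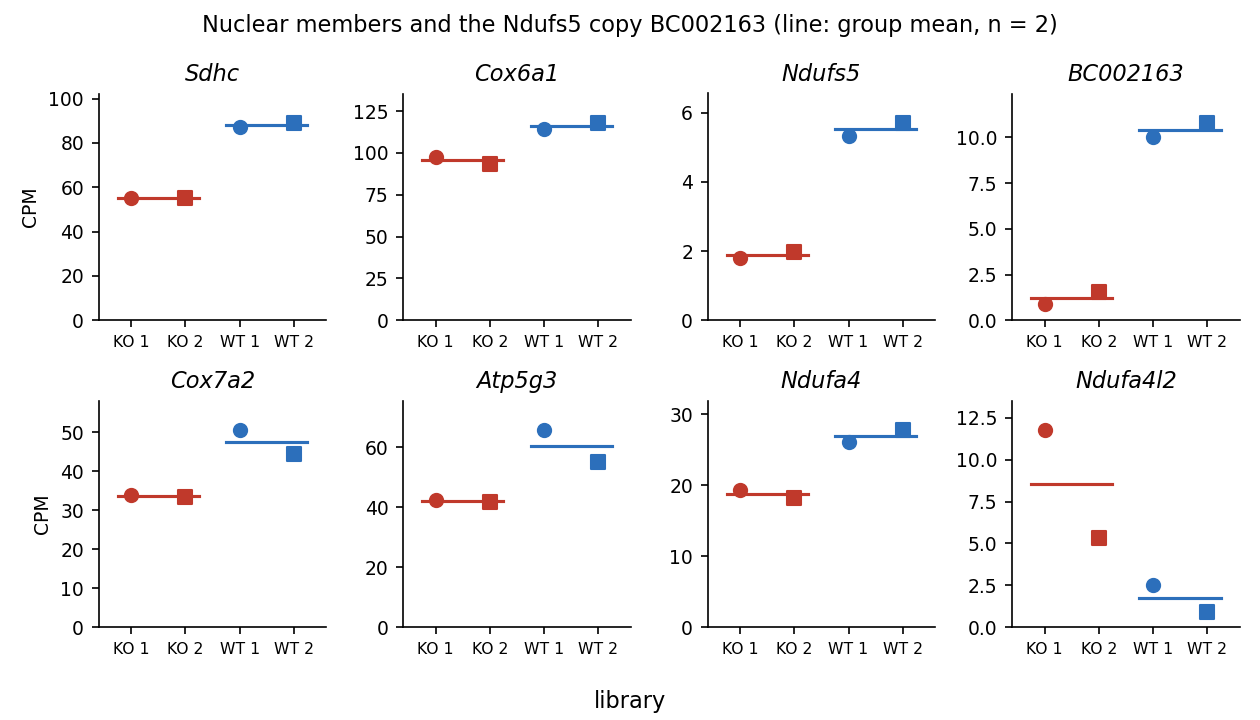
CPM (axes start at 0) of 7 nuclear members and of BC002163, the copy of Ndufs5, in each library, with libraries labelled KO in red, WT in blue and a line at each group mean (n = 2). Sdhc lies at 55.0 CPM in both libraries labelled KO, against 87.3 and 88.9 CPM in those labelled WT, and Ndufa4l2 at 11.7 and 5.34 CPM in the libraries labelled KO, against 2.55 and 0.904 CPM in those labelled WT.

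Complex III had no nuclear subunit with a clear separation among its 3 most abundant. Uqcrc1, a large core protein, had 67.8 and 40.5 CPM in the libraries labelled KO, against 53.1 and 58.0 CPM in those labelled WT (log2 fold change -0.04 ± 0.28, edgeR adjusted p = 0.993). Uqcrc2, its partner, had 44.2 and 49.9 CPM in the libraries labelled KO, against 63.8 and 43.7 CPM in those labelled WT (log2 fold change -0.19 ± 0.25, edgeR adjusted p = 0.932). Uqcrfs1, the Rieske iron-sulfur protein, had 37.6 and 33.1 CPM in the libraries labelled KO, against 32.7 and 34.3 CPM in those labelled WT (log2 fold change 0.08 ± 0.22, edgeR adjusted p = 0.976). The groups of all 3 overlapped, and each of these log2 fold changes changed sign when 1 library was left out. Uqcr11, a small subunit among the 3 lowest fold changes of the chain, had 2.19 and 3.43 CPM in the libraries labelled KO, against 6.70 and 2.99 CPM in those labelled WT, where WT 1 alone stood high (log2 fold change -0.78 ± 0.71, edgeR adjusted p = 0.876, and -0.09 without WT 1). In Uqcrb and Uqcrq both libraries labelled KO lay below both labelled WT, and no nuclear complex III subunit lay above. Over all genes tested, 18.4% lay below and 21.2% above in this way.

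In complex IV, Cox7a2l, which helps join complexes III and IV into supercomplexes, had 254 and 242 CPM in the libraries labelled KO, against 225 and 232 CPM in those labelled WT. It was the only tested nuclear Cox member in which the libraries labelled KO lay above those labelled WT, by 0.12 ± 0.12 on the log2 scale (edgeR adjusted p = 0.898). Cox6a1, a regulatory subunit, had 97.6 and 93.5 CPM in the libraries labelled KO, against 114 and 118 CPM in those labelled WT (log2 fold change -0.28 ± 0.14, edgeR adjusted p = 0.694). Cox6c, a small membrane subunit, had 46.5 and 53.0 CPM in the libraries labelled KO, against 57.9 and 55.3 CPM in those labelled WT (log2 fold change -0.19 ± 0.19, edgeR adjusted p = 0.904). Cox7a2, Cox7b and Cox8a lay below in both libraries labelled KO as well, making 5 of 11 below and 1 above, beside the same 18.4% and 21.2% of all genes.

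Complex V held Atp5b, the nuclear member with the highest level per kb. Atp5b had 1740.3 and 1772 CPM in the libraries labelled KO, against 1914 and 1859.7 CPM in those labelled WT, a log2 fold change of -0.10 ± 0.07 (edgeR adjusted p = 0.806). Atp5a1, the alpha subunit of the same catalytic head, had 469 and 480.1 CPM in the libraries labelled KO, against 530.1 and 519 CPM in those labelled WT (log2 fold change -0.15 ± 0.10, edgeR adjusted p = 0.806). Both lay slightly lower in the libraries labelled KO without overlap. Atp5c1, the gamma shaft that turns inside the head, had 256 and 301 CPM in the libraries labelled KO, against 279 and 306 CPM in those labelled WT, and overlapped (log2 fold change -0.07 ± 0.14, edgeR adjusted p = 0.961). Of 17 complex V members, 6 lay below and 1, Atp5k, above in both libraries labelled KO, beside 18.4% of all genes below and 21.2% above. The rule also took Atp5s and Atp5sl, whose names share the stem without being core subunits.

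The 3 genes of subunit c encode the same mature ring protein with different import signals. All 3 lay below in both libraries labelled KO, an arrangement of 18.4% of all genes tested. They are among the 6 complex V members already counted as below. Atp5g1 had 51.2 and 53.8 CPM in the libraries labelled KO, against 56.5 and 64.0 CPM in those labelled WT (log2 fold change -0.20 ± 0.19, edgeR adjusted p = 0.884). Atp5g2 had 52.2 and 56.3 CPM in the libraries labelled KO, against 72.2 and 73.3 CPM in those labelled WT (log2 fold change -0.42 ± 0.17, edgeR adjusted p = 0.602), and shares its whole transcript with a copy. Atp5g3 had 42.5 and 41.6 CPM in the libraries labelled KO, against 65.7 and 54.9 CPM in those labelled WT (log2 fold change -0.52 ± 0.20, edgeR adjusted p = 0.561). No order was read among the 3, and their differences from one another were not tested.

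Some subunits exist as forms used by different tissues. Ndufa4, named for complex I and now known as a complex IV subunit, had 19.3 and 18.2 CPM in the libraries labelled KO, against 26.0 and 27.7 CPM in those labelled WT (log2 fold change -0.52 ± 0.24, edgeR adjusted p = 0.666). Its relative Ndufa4l2, which is known to be induced by hypoxia and to be abundant in vascular mural cells, had 11.7 and 5.34 CPM in the libraries labelled KO, against 2.55 and 0.904 CPM in those labelled WT. This was the largest fold of the chain, 4.91, with wide spread within each group (log2 fold change 2.30 ± 0.77, edgeR adjusted p = 0.491, and 1.62 to 3.23 with any 1 library left out). Beside it, 9 of 10 tested markers of pericytes, smooth muscle and fibroblasts had a log2 fold change above 0, and the 11 listed summed to 1009 and 595 CPM in the libraries labelled KO, against 489 and 462 CPM in those labelled WT, with Tagln at 0 in 1 library. Rgs5, a pericyte marker, had 507 and 326 CPM in the libraries labelled KO, against 235 and 256 CPM in those labelled WT. The part of these cells in the Ndufa4l2 value was not tested.

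Cox7a2, the form of subunit VIIa found in most tissues, had 34 and 33.4 CPM in the libraries labelled KO, against 50.5 and 44.4 CPM in those labelled WT (log2 fold change -0.50 ± 0.21, edgeR adjusted p = 0.617). Its heart and muscle counterpart Cox7a1 was counted 5 and 13 times in the libraries labelled KO, against 0 and 0 times in those labelled WT, and was not tested. The 5 listed muscle markers summed to 0.125 and 1.84 CPM in the libraries labelled KO, against 0.711 and 1.88 CPM in those labelled WT. Cox6b1, the widespread form of VIb, had 4.19 and 4.42 CPM in the libraries labelled KO, against 4.33 and 5.28 CPM in those labelled WT, and its testis form Cox6b2 had 2.06 and 1.29 CPM against 1.07 and 1.67 CPM. Both overlapped, with log2 fold changes of -0.16 ± 0.54 and 0.29 ± 0.99 (edgeR adjusted p = 0.983 and 0.983). Cox8a, the ubiquitous form of subunit VIII, had 51.7 and 44.9 CPM in the libraries labelled KO, against 53.7 and 53.7 CPM in those labelled WT (log2 fold change -0.15 ± 0.19, edgeR adjusted p = 0.927).

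Promoter letters were a feature that the rule did not use. NRF1, a transcription factor known for activating respiratory chain genes, recognises GCGCNNGCGC. In RefSeq promoters of GRCm38.p6, from 250 bases before to 50 bases after the start, this motif was found on either strand in 21 of 73 nuclear members that could be matched (28.8%), against 1891 of 27025 genes (7.0%). CCGGAAG, an ETS motif of the kind bound by GABPA, was in 18 (24.7%), against 9.93% of genes. A YY1 motif, the only other one searched, was in 5 (6.85%), against 0.755% of genes. The 27025 genes were all those with such a promoter, not matched to the members in biotype, level or base content. Overlaps between motifs were not counted, and a match is not a bound site. Cox6a1 shows a promoter with 2 matches and Ndufs5, the lowest member, one with 1, on the minus strand of chr5:115348909-115349208 and chr4:123718137-123718436, with the matches in capitals.
Cox6a1: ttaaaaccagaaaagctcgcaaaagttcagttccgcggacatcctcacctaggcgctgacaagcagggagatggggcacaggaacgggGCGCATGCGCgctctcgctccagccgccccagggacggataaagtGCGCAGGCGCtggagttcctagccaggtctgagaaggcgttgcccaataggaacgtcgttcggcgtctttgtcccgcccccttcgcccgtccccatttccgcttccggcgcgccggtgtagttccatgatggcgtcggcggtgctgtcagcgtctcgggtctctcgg
Ndufs5: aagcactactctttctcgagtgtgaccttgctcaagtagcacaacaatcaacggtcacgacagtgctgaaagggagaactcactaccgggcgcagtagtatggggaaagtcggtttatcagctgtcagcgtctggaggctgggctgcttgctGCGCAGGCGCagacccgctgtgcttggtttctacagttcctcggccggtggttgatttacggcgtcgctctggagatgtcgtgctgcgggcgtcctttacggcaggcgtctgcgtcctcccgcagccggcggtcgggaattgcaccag

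Genes that work with the chain were read from the same test, and none of their lists had a called gene in edgeR. Of 8 nuclear regulators, 6 had a log2 fold change below 0, with a median of -0.23. Nrf1 itself had 82.7 and 80.0 CPM in the libraries labelled KO, against 109 and 152 CPM in those labelled WT, so the groups stood apart with WT 2 highest (log2 fold change -0.68 ± 0.20, edgeR adjusted p = 0.455). Gabpa had 61.0 and 85.1 CPM in the libraries labelled KO, against 77.5 and 70.7 CPM in those labelled WT, and overlapped. Among 19 genes of mitochondrial DNA maintenance and transcription, 8 lay above and 11 below 0, with a median of -0.02. Lrpprc, which stabilises mitochondrial mRNAs, had 89.1 and 132 CPM in the libraries labelled KO, against 141 and 141 CPM in those labelled WT (log2 fold change -0.35 ± 0.21, edgeR adjusted p = 0.775). Ssbp1, which coats single-stranded mitochondrial DNA, had 93.6 and 109 CPM in the libraries labelled KO, against 94.1 and 97.5 CPM in those labelled WT. Lrpprc lay below in both libraries labelled KO, and the groups of Ssbp1 overlapped.

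Other subunits and electron carriers outside the name pattern had 4 of 12 above 0 and a median of -0.12, with Cyc1, the cytochrome c1 of complex III, at 239 and 260.4 CPM in the libraries labelled KO, against 283 and 249.7 CPM in those labelled WT. Etfa, which feeds electrons from fatty acid oxidation, had 127 and 104 CPM in the libraries labelled KO, against 101 and 123 CPM in those labelled WT. The assembly factors of all complexes were evenly split, 21 above and 21 below 0, led in abundance by Coa5 (121 and 110.2 CPM in the libraries labelled KO, against 102 and 107 CPM in those labelled WT) and Ndufaf4 (88.7 and 68.7 CPM against 79.6 and 61.7 CPM). The citric acid cycle had 7 of 13 above 0 with a median of 0.02. Idh3g, a subunit of isocitrate dehydrogenase, had 289.8 and 273 CPM in the libraries labelled KO, against 256 and 253 CPM in those labelled WT. Coenzyme Q synthesis had 3 of 11 above 0, a median of -0.08, with Coq9 at 125 and 99.8 CPM in the libraries labelled KO, against 117 and 119 CPM in those labelled WT, and Coq7 at 66.5 and 82.8 CPM against 80.8 and 78.0 CPM. The 4 adenine nucleotide and phosphate carriers lay above 0, with a median of 0.11. Slc25a4, which exchanges ATP for ADP, had 254 and 262 CPM in the libraries labelled KO, against 242 and 241 CPM in those labelled WT, and Slc25a3, the phosphate carrier, 186 and 176 CPM against 165 and 165 CPM.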

How the data were processed

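RNA of 4 libraries was measured by sequencing, per the labels' protocols. The authors deposited raw read counts per gene in 4 tables, each pairing 1 KO with 1 WT library. A library's counts did not differ between its tables, and the tables were joined on the gene identifier. The 8 columns of the authors' normalized counts in these tables were not used. A gene left out of a library's tables was set to 0, since such genes had at most 4 counts wherever another table showed them. Bowtie2 2.2.3, TopHat2 2.0.12 and HTSeq 0.6.0 are named in the submitters' processing notes. The notes also name mm9, while gene starts and ends equal those of GENCODE M21 on GRCm38 for 21283 of 23475 genes (90.7%) and 83 of 99 members, so positions are given on GRCm38. The sources used here do not state the strand setting, and reads of overlapping genes on opposite strands cannot be told apart.

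Counts were tested with edgeR 4.0.16 (TMM scaling, quasi-likelihood test, genes kept by filterByExpr at a minimum count of 10, 17696 genes, group as the only term), with Benjamini-Hochberg adjustment over all genes and a threshold of 0.05. DESeq2 1.42.0 and limma-voom (limma 3.58.1) were alternatives, as were other scalings and filters, added copy counts, the replicate block and leaving out each library. With 2 residual degrees of freedom and a common dispersion of 0.204, the precision was low. Each SE of an edgeR log2 fold change is that change, without its sign, divided by the square root of the test's F statistic. It was not estimated separately. Data were simulated from these libraries (16636 genes) with edgeR's own dispersion of each gene. There edgeR recovered a 2-fold change in 9 of 100 genes and a 4-fold change in 47 of 100. It made 3 false calls, against 51 with DESeq2. Because the simulated spread was edgeR's own, this does not rank edgeR against DESeq2. No 2 libraries agreed within counting noise (chi-square per gene 20.9 to 42.7). Near-identical copies were found with blastn 2.17.0 among GENCODE M21 transcripts. Promoters came from RefSeq.

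Values are given per library for the mitochondrial members, the 3 most abundant tested nuclear subunits of complexes I, III, IV and V, all of complex II, the 3 highest and 3 lowest fold changes at a mean of at least 1 CPM, fixed isoform sets, and the 2 most abundant genes of each other list. BC002163, Gm12251, the position of Sdhc, and Ndufa10, which is not among the named members, were singled out after their values were seen. The members and lists were chosen with earlier results of these data known. Some genes that this rule would name are not reported here.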

Additional observations from a re-analysis of the deposited data

How the results depend on the processing

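The call of 0 members held under every setting but DESeq2, which called 1. The number of genes called over the whole table, 3, was 15 at an adjusted p under 0.10, 28 with limma-voom, 56 with no filter on low counts, 68 with a mean of at least 5 CPM, 378 with DESeq2, and 0 to 42 with 1 library left out. The causes of these moves were not tested, beyond the fewer samples in the last. With 1 library left out, the lone library of a group is assumed to vary like the other group's. Replicate numbers do not pair the libraries, since the labels give a number only and the deviations of same-numbered libraries correlated at 0.03; with the replicate block 4 genes and 0 members were called.

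Medians moved as follows. Complex II, at 0.01, was 0.0012 with total counts and -0.023 to 0.057 with 1 library left out. Complex IV, at -0.19, was -0.28 with a mean of at least 5 CPM, -0.28 with structural subunits only, and -0.22 to -0.12 with 1 library left out. The same omission gave -0.18 to -0.036 for complex I, -0.26 to -0.011 for complex III and -0.13 to -0.12 for complex V. The mitochondrial median stayed between 0.25 and 0.42, and the ratio of mitochondrial shares between 1.17 and 1.24.

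Of 39 named members tested, 6 changed sign in some setting, all of them nuclear and all with 1 library left out. Their log2 fold changes then ran from -0.45 (without KO 1) to 0.29 (without KO 2) for Uqcrc1, 0.03 without WT 2, from -0.44 to 0.11 (without WT 1) for Uqcrc2, from -0.016 (without KO 1) to 0.16 for Uqcrfs1, from -0.20 to 0.044 (without KO 1) for Atp5c1, from -0.12 to 0.018 (without WT 2) for Sdhb, and from -0.082 (without KO 1) to 0.65 for Cox6b2. These were all small log2 fold changes beside their errors. Depth limits Ndufs5, mt-Co2, mt-Co3 and Ndufa4l2, which rest on few counts.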

Other observations

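Further genes of the lists above are given here by their own values. Cox4i1, the widespread form of complex IV subunit IV, had 73.3 and 74.8 CPM in the libraries labelled KO, against 79.8 and 84.3 CPM in those labelled WT. Its lung form Cox4i2 had 0.812 and 1.47 CPM in the libraries labelled KO, against 0.474 and 1.11 CPM in those labelled WT. Polrmt, the mitochondrial RNA polymerase, had 56.2 and 63.3 CPM in the libraries labelled KO, against 76.0 and 77.3 CPM in those labelled WT, while mitochondrial protein transcripts stood higher in the libraries labelled KO (Polrmt log2 fold change -0.36 ± 0.17, edgeR adjusted p = 0.671). Tfam, which packs mitochondrial DNA and starts its transcription, had 49.9 and 100.3 CPM in the libraries labelled KO, against 77.4 and 99.7 CPM in those labelled WT, so its groups overlapped. These 4 genes were chosen after their values were seen.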
